A study of Mus musculus with 2 samples.

Results

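The MHC class II genes *Cd74*, *H2-Aa*, *H2-Ab1*, *H2-Eb1*, *H2-DMa*, *H2-DMb1* and *Ciita* were followed across the cells of the mouse dorsal root ganglion (DRG), the cluster of sensory neuron cell bodies beside the spinal cord. These 7 genes were taken by symbol from the 32285 genes of the files, and all 7 were measured. The data came from 2 samples (replicates 1 and 2) of L4 and L5 DRGs of naive female C57BL/6 mice aged 3 months, dissociated with papain and collagenase, sorted for live cells and sequenced with 10x Genomics single cell 3′ chemistry. Both samples form 1 group, so cell classes were compared with each other and with free RNA, and the sources used here do not say how many animals went into each sample.

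MHC class II molecules present peptides from engulfed proteins to CD4+ T cells. *H2-Aa* encodes the alpha chain and *H2-Ab1* the beta chain of the molecule I-A, and *H2-Eb1* the beta chain of I-E, which C57BL/6 mice do not assemble because their I-E alpha chain gene is defective. *Cd74* encodes the invariant chain, which fills the peptide groove and steers the molecule to endosomes. *H2-DMa* and *H2-DMb1* encode the chains of H2-M, which exchanges the last piece of invariant chain for peptide, and *Ciita* encodes the transactivator that switches class II genes on. Dendritic cells, B cells and many tissue macrophages carry class II without stimulation, and interferon gamma can induce it in endothelial cells and glia.

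Promoters of class II genes share the X and Y boxes, at which a protein complex assembles that recruits CIITA. RefSeq windows (build GRCm38.p6, 250 bases before to 50 after the start of transcription) were at hand for *H2-Aa*, *H2-DMa*, *H2-DMb1* and *H2-Eb1*. The 120 bases before the start are shown for a chain gene with both of the letter runs searched for and a chain gene with 1 of them. The H2-M gene with both is shown too, because levels of these genes differed in the glial cells described here. Whether the letters bear on those levels was not tested. Capitals mark the Y box letters TGATTGG and the X box letters AACNGATG, searched on both strands, and the runs read 5′ to 3′ on the strand of the gene. A box with other letters is missed by this search, so a run not found does not show that a box is absent.
H2-Eb1, chr17:34305747-34305866, plus strand: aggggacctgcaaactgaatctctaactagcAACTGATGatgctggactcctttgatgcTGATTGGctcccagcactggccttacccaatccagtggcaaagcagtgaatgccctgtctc
H2-DMb1, chr17:34153071-34153190, plus strand: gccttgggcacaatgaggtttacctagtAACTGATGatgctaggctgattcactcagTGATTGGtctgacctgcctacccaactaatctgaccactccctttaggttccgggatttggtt
H2-Aa, chr17:34287824-34287943, minus strand: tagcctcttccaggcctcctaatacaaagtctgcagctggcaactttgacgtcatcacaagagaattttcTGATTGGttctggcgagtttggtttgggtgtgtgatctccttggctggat
The X box letters ended 82 bases before the start of *H2-Eb1* and 85 bases before that of *H2-DMb1*, and the Y box letters ended 55 and 57 bases before it. In *H2-Aa* the Y box letters ended 44 bases before the start, and neither of the 2 windows of *H2-DMa* held either run of letters. Both of those windows lie inside the Ensembl span of *H2-DMa*, 34119541 to 34139101, and neither covers its 5′ end. Of 32851 windows, 7.82% held the Y box letters, 2.32% the X box letters and 0.186% both.

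Cells were called from the deposited matrices, which held 119101743 and 128668771 unique molecular identifiers (UMIs, each the count of 1 captured RNA molecule), and 17026 cells were kept (8526 and 8500). They were clustered with the 7 genes and the antigen presentation lists described here left out of the genes used, and clusters were named from marker pairs and fixed marker lists, so that a name such as macrophages stands for macrophage-like cells. Named classes held 331 macrophages, 94 C1q-negative leukocytes, 419 endothelial cells, 7133 satellite glial cells (SGCs), 3261 myelinating Schwann cells, 1161 non-myelinating Schwann cells, 1294 fibroblasts, 730 mural cells and 435 neurons. Each of the pair markers was highest in its own class. Of the neurons, 416 came from a cluster with a median of 831 UMIs before filtering, and 19 from a deep cluster of 116 cells. The upper cutoffs removed the rest of that deep cluster, so the neuron class was mostly shallow barcodes. A further 2168 kept cells stayed unnamed. Of the called barcodes, 134 occurred in both samples, and 161 of the 208 kept cells that carried a shared barcode were neurons. Without those cells the *Cd74* level in neurons was 19.1 and 29.4 CPM (UMIs scaled to the same total in every profile), against 18.7 and 33.1 CPM with them.

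*Cd74* and the 3 chain genes were abundant in leukocytes and scarce in every other named class. *Cd74* reached 18102 and 22170 CPM in the macrophages of replicates 1 and 2, and 15221 and 18478 CPM in C1q-negative leukocytes. In the other 7 classes *Cd74* lay between 6.03 CPM in mural cells and 76.0 CPM in endothelial cells, so no sample of another class came near either leukocyte class. The 425 macrophages and C1q-negative leukocytes held 85.2% of the *Cd74* UMIs of all kept cells, and the unnamed cells held 12.7%. Unnamed or mixed leukocyte subclusters ran from 10.6 to 8312 CPM of *Cd74*, and some carried glial genes. A mixed one of 88 cells had 4961 CPM of *Cd74*, 1148 CPM of *C1qa* and 6869 CPM of the SGC gene *Fabp7*. Another of 91 cells, led by *Scn7a* and *Cadm2*, had 4650 CPM of *Cd74* and 1062 CPM of *C1qa*. Such cells entered no glial class, and their make-up was not tested. For *H2-DMa* the share in the same 425 cells was 60.8%, and for *H2-DMb1* it was 70.5%.

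**Figure D1:**
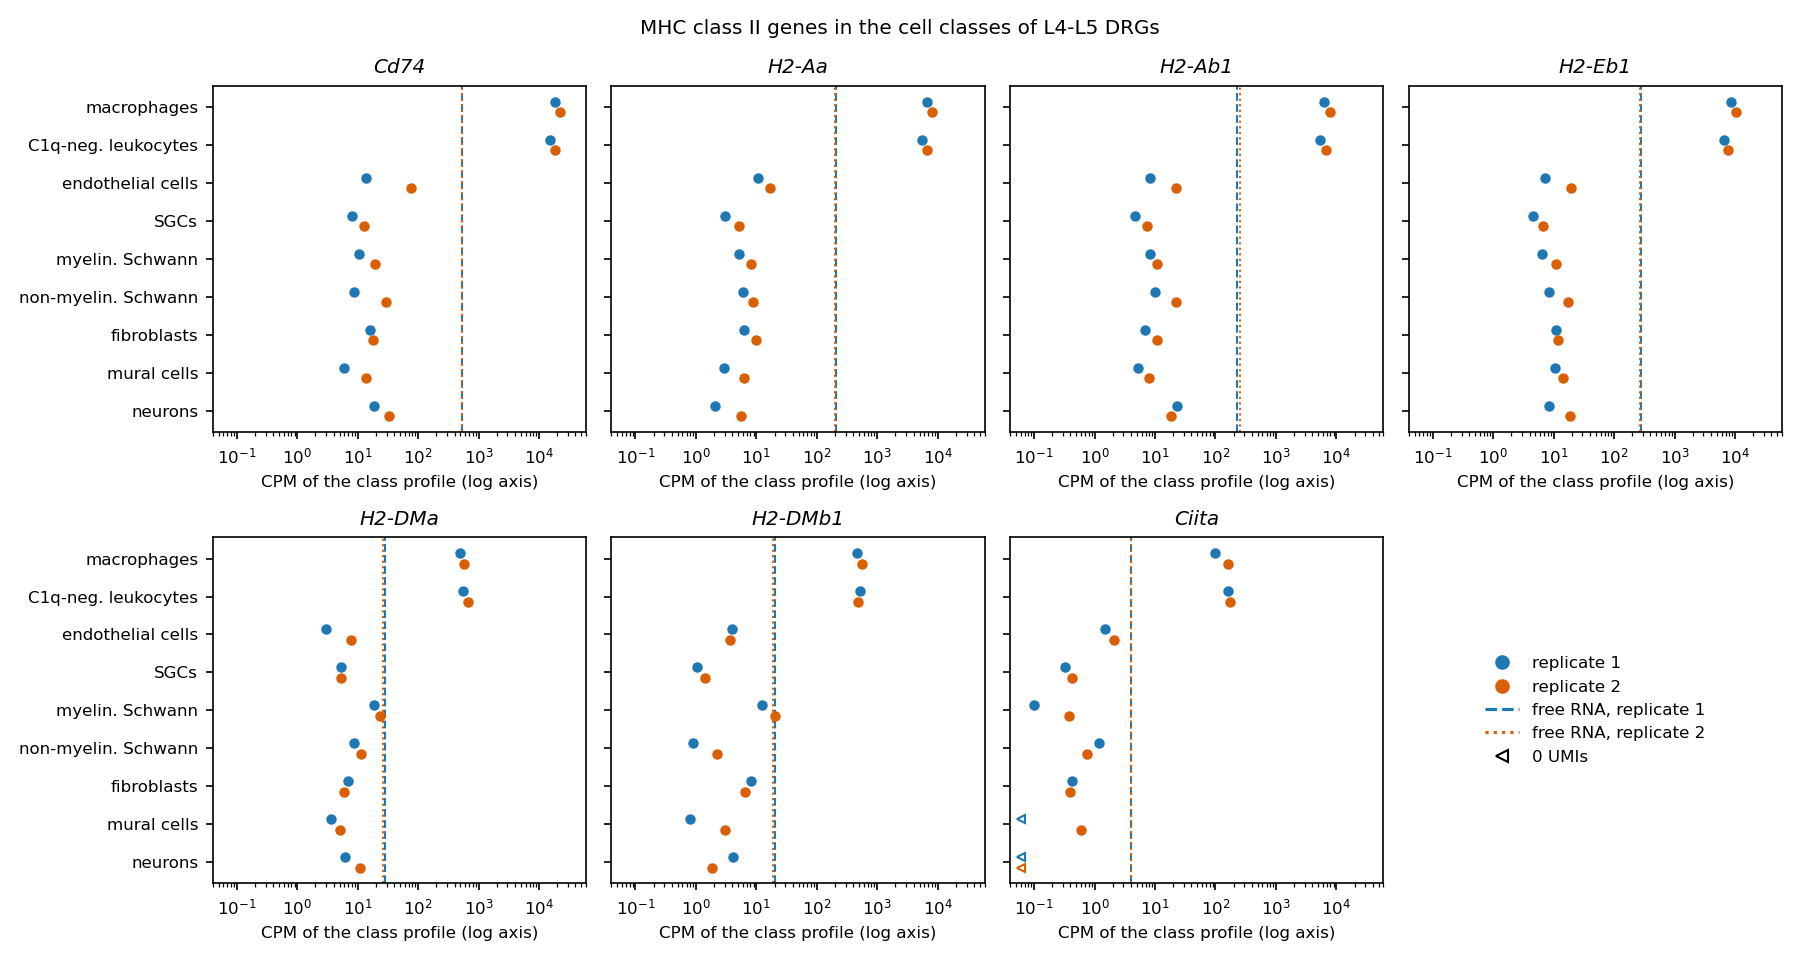
Level of each MHC class II gene in CPM (log axis) in 9 cell classes, 1 point per sample, with the level in free RNA of each sample as a vertical line and 0 UMIs as an open triangle. All 7 genes lie to the right of the free RNA lines in both leukocyte classes, and in myelinating Schwann cells *H2-DMa* (18.3 and 23.8 CPM) and *H2-DMb1* (12.2 and 20.5 CPM) lie close to them.

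Macrophages, marked by the complement genes *C1qa*, *C1qb* and *C1qc*, and C1q-negative leukocytes both carried class II. None of the 7 genes passed an adjusted p under 0.05 between them (edgeR quasi-likelihood test, Benjamini-Hochberg over 17595 genes), while 11.8% of all genes were called higher and 9.50% lower in macrophages. At an unadjusted p under 0.05 there was 1 gene, *H2-Eb1*, and DESeq2 called 0. With the sample as a replicate block, which takes up what both classes of 1 sample share, 2 genes were called, *H2-Aa* (log2 0.48 ± 0.16 SE higher in macrophages, adjusted p 0.033) and *H2-Eb1* (0.61 ± 0.19, adjusted p 0.021), and without the filter on low counts 4 were called.

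*H2-Eb1* stood at 8454 and 10517 CPM in macrophages and at 6514 and 7802 CPM in C1q-negative leukocytes, a log2 difference of 0.61 ± 0.26 (SE, n = 2 per class, edgeR adjusted p 0.11). *H2-Aa* stood at 6610 and 8009 CPM against 5420 and 6712 CPM, and *H2-Ab1* at 6303 and 7942 CPM against 5424 and 6736 CPM. The 2 classes overlapped in both of these genes across samples. These levels are relative to UMI totals, while the log2 differences of this comparison are on the TMM scale, which corrects for differences in RNA composition, and on that scale neither gene overlapped (*H2-Aa* 8216 and 9776 against 5610 and 7368, *H2-Ab1* 7835 and 9694 against 5614 and 7395). For the H2-M chains the difference was smaller than its SE in *H2-DMa* (489 and 573 CPM against 550 and 672 CPM, log2 -0.01 ± 0.15) and 0.24 ± 0.16 in *H2-DMb1* (464 and 559 CPM against 511 and 486 CPM). *Ciita* had 98.3 and 164 CPM in macrophages, from 196 and 247 UMIs, and 161 and 171 CPM in C1q-negative leukocytes, a log2 difference of -0.16 ± 0.21 that became 0.15 without the macrophages of replicate 1.

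C1q-negative leukocytes were not uniform, and the class values average over 3 subclusters. The subcluster with *Cd209a*, a lectin gene of monocyte-derived dendritic cells, held 27021 and 28228 CPM of *Cd74* in 14 and 17 cells. Another, with the monocyte genes *Ly6c2*, *Ccr2* and *Plac8* but led by haemoglobin genes, held 9923 and 13741 CPM in 23 and 31 cells. The third expressed mast cell proteases such as *Mcpt4* and *Cpa3*, and had 0 UMIs of *Cd74* and of *Ciita* in its 6 and 3 cells. Among the 5 macrophage subclusters *Cd74* ranged from 11589 to 23961 CPM, with the lowest value in replicate 1 of subcluster 4 and the highest in replicate 2 of subcluster 8. *Ciita* ranged from 47.4 to 213 CPM over the same subclusters and from 138 to 189 CPM in the *Cd209a* and *Ly6c2* subclusters.

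**Figure D2:**
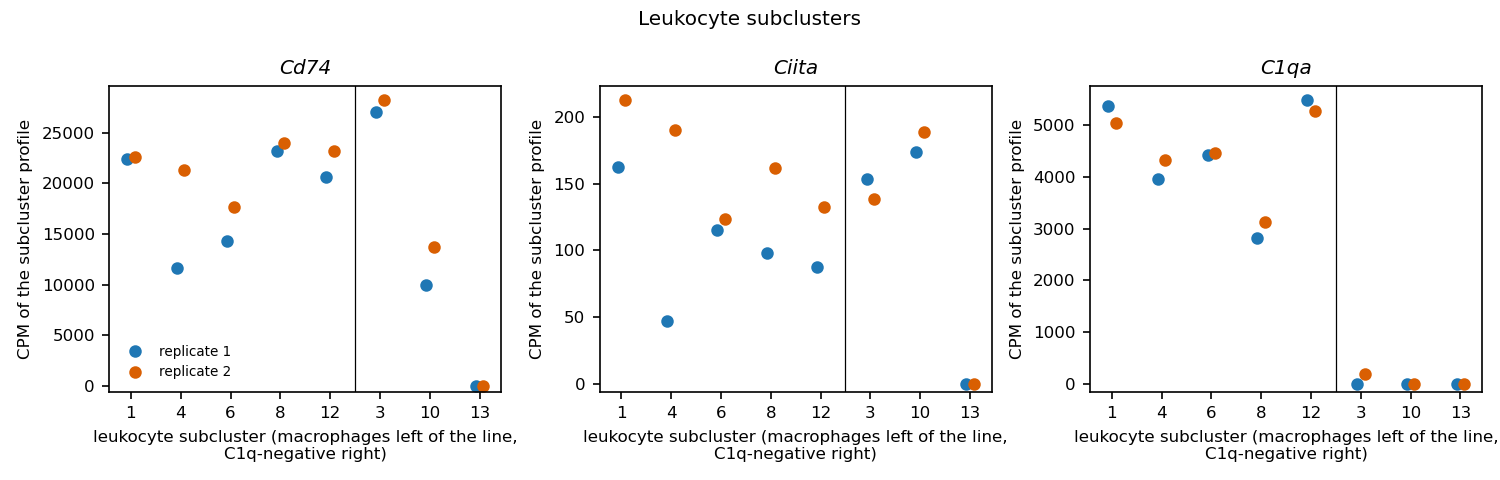
*Cd74*, *Ciita* and *C1qa* in CPM in the 5 macrophage subclusters (left of the line) and the 3 C1q-negative subclusters (right), 1 point per sample. Subclusters 3 and 10 keep *Cd74* and *Ciita* with *C1qa* at or under 188 CPM, and subcluster 13, the mast cell protease subcluster, is at 0 for all 3 genes.

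Some other genes of the pathway differed between the leukocyte classes. Of 40 measured genes in 6 lists, 14 were higher and 7 lower in macrophages (edgeR, adjusted p under 0.05), beside 11.8% and 9.50% of all genes. All 6 lysosomal cathepsin and legumain genes were higher in macrophages, the proteases that cut antigen and invariant chain. The last gene of that list, the reductase gene *Ifi30*, was lower (mean 220 CPM against 541 CPM). *Lgmn* had 1187 and 1188 CPM in macrophages against 123 and 169 CPM (log2 3.22 ± 0.16), *Ctsb* differed by 2.91, *Ctsd* by 2.79 and *Ctsl* by 2.68. The 3 measured genes of the other class II list were lower in macrophages. *H2-Oa* and *H2-Ob*, the chains of the H2-M inhibitor H2-O, stood at 6.02 and 9.93 CPM and at 14.05 and 17.22 CPM in macrophages, against 82.6 and 99.2 CPM and 83.9 and 103 CPM in C1q-negative leukocytes. *H2-DMb2*, the near copy of *H2-DMb1*, was lower as well (8.03 and 13.2 CPM against 79.9 and 132 CPM, log2 -3.16 ± 0.41), and reads of these copies may have been split between them in counting. In the interferon gamma list *Irf1* was higher in macrophages (log2 2.11) and the kinase gene *Jak2* lower (-2.96). Of the co-stimulatory ligands, *Cd86* was higher in macrophages (1.35) and *Cd80* lower (-1.69).

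Free RNA, released by broken cells into the suspension, enters every droplet, and its class II content was read from the barcodes ranked 45000 to 90000 by UMIs. These held 54 to 91 UMIs each in replicate 1 and 88 to 157 in replicate 2, in all 3240385 and 5746653 UMIs. *Cd74* made up 535 ± 8.50 CPM of it (SD, n = 2), *H2-Eb1* 273 ± 2.26, *H2-Ab1* 241 ± 14.1 and *H2-Aa* 204 ± 4.92 CPM. *H2-DMa* was at 26.8 ± 1.43 CPM, *H2-DMb1* at 19.7 ± 1.33 CPM and *Ciita* at 4.01 CPM, the last from 13 and 23 UMIs. Per 100 UMIs of *Cd74* and the 3 chain genes, free RNA held 3.87 and 3.56 UMIs of the H2-M genes and macrophages 2.41 and 2.33.

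None of the 7 genes was called higher than in free RNA in endothelial cells, SGCs, myelinating Schwann cells or non-myelinating Schwann cells. The count was 0 of 7 in each of the 4 classes by edgeR, at an unadjusted p under 0.05, by DESeq2 and under every alternative tried, while 24.3%, 11.0%, 18.9% and 17.7% of all 17726 genes tested were called higher in those classes in the same order. Called lower were 6 of 7 members in endothelial cells, 7 in SGCs, 5 in myelinating Schwann cells and 7 in non-myelinating Schwann cells, beside 37.1%, 38.6%, 41.8% and 30.1% of all genes. These classes were compared with the same free RNA profiles.

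In endothelial cells, which line the ganglion's vessels, *Cd74* was at 13.5 and 76.0 CPM, a log2 change of -3.56 ± 0.48 against free RNA (adjusted p 1.52e-06). The 3 chain genes lay between 7.22 and 22.6 CPM, with changes from -4.34 to -3.88. Replicate 2 was the higher sample in all 4 of these genes. *H2-DMa* (3.01 and 7.62 CPM) changed by -2.28 ± 0.28 and *H2-DMb1* (3.91 and 3.68 CPM) by -2.36 ± 0.36. *Ciita*, with 5 and 8 UMIs, was at 1.504 and 2.10 CPM, and its change of -1.13 ± 0.53 did not pass the test (adjusted p 0.069).

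SGCs, the glia that wrap the neuronal cell bodies, had the most cells and among the lowest levels. *Cd74* was at 8.11 and 12.9 CPM (log2 -5.67 ± 0.50 against free RNA, adjusted p 6.30e-09) and the chain genes at 3.02 to 7.38 CPM. *H2-DMa* was at 5.25 and 5.29 CPM, a smaller change of -2.33 ± 0.19, and *H2-DMb1* at 1.05 and 1.44 CPM. *Ciita* had 18 and 24 UMIs in all SGCs, or 0.319 and 0.420 CPM.

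Non-myelinating Schwann cells, which bundle small axons, held 8.71 and 29.0 CPM of *Cd74* (log2 -4.79 ± 0.52, adjusted p 2.30e-07), and the chain genes lay between 6.00 and 22.3 CPM. *H2-DMa* stood at 8.71 and 11.4 CPM (log2 -1.39 ± 0.25), *H2-DMb1* at 0.901 and 2.23 CPM and *Ciita* at 1.201 and 0.745 CPM, from 4 and 3 UMIs. *Ciita* was called lower than in free RNA (-2.06 ± 0.61, adjusted p 0.0086), a call lost without the cells of replicate 2 (adjusted p 0.094).

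Myelinating Schwann cells, which wrap single axons in myelin, differed from the rest in the H2-M genes. Their *Cd74* was at 10.7 and 19.5 CPM (log2 -5.14 ± 0.51, adjusted p 2.35e-08) and the chain genes at 5.25 to 10.97 CPM, as in other glia. *H2-DMa* was at 18.3 and 23.8 CPM, from 185 and 256 UMIs, and *H2-DMb1* at 12.2 and 20.5 CPM, from 123 and 221 UMIs. Against free RNA these were changes of -0.33 ± 0.19 (adjusted p 0.13) and -0.25 ± 0.23 (adjusted p 0.35), and both turned above 0 with TMM scaling (0.03 and 0.12). The change in *H2-DMb1* was 0.07 without the cells of replicate 1 and -0.68 (adjusted p 0.024) without those of replicate 2. *Ciita* had 1 and 4 UMIs.

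**Figure D3:**
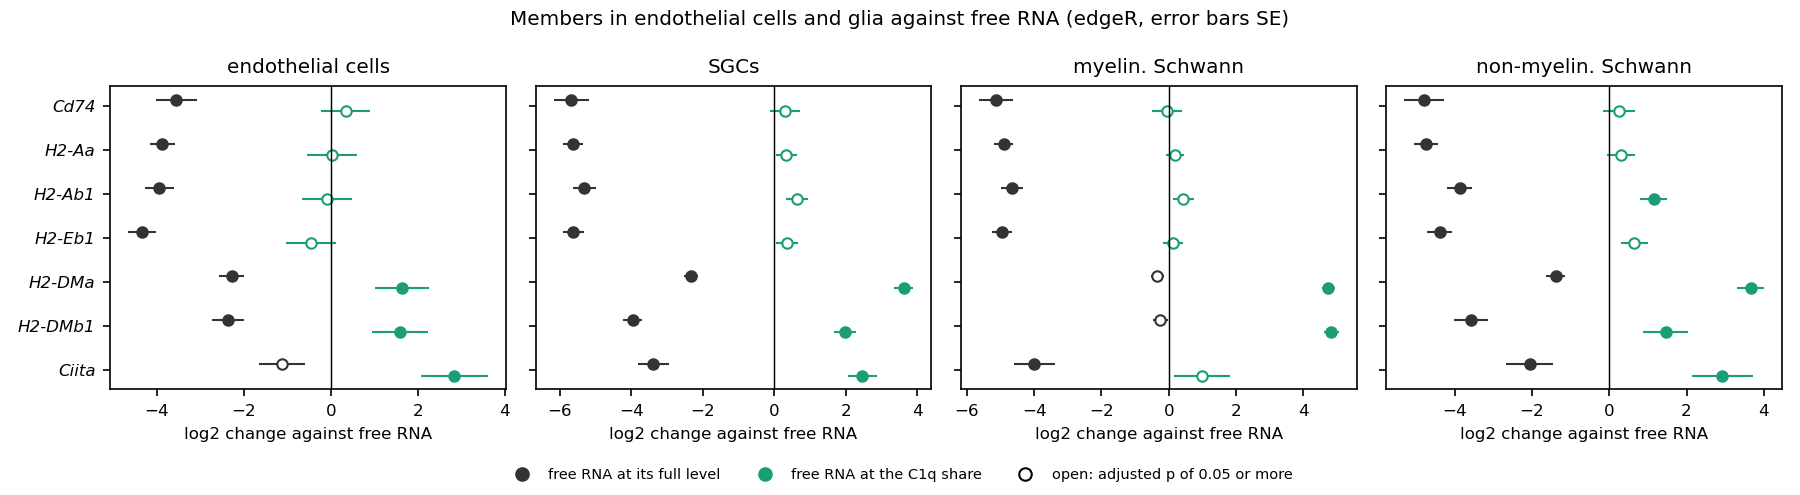
Log2 change of each gene in 4 classes against free RNA at its full level (black) and against free RNA scaled to the C1q level of the class (green), with SE bars, filled where the adjusted p was under 0.05. Every black point lies left of 0, from -5.67 to -0.25, and the green points for *Cd74* lie between -0.05 and 0.34.

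A droplet with a cell holds free RNA only as a part of its UMIs, so a class was also set against a smaller dose of it. C1q genes are made by macrophages, and their summed level in each class was taken as a percentage of that in free RNA. It was 2.41% and 10.9% in endothelial cells, 1.24% and 1.97% in SGCs, 2.97% and 2.91% in myelinating and 2.15% and 3.89% in non-myelinating Schwann cells. *Cd74* and the 3 chain genes together stood at 3.17% and 10.7%, 1.63% and 2.56%, 2.45% and 3.97%, and 2.63% and 6.19% of their free RNA level in the same classes. In endothelial cells the sample with more C1q was also the sample with more class II. There the C1q of replicate 2 was not spread evenly over cells. *C1qa* was at 80.9 CPM in 22 cells of a smaller cluster and at 4.05 CPM in 208 cells of the larger one. *Cd74* was at 402 and 43.4 CPM in the same cells. The C1q percentage of that sample is thus an average over unlike cells, and so is the comparison scaled to it. The H2-M genes lay higher, at 14.3% and 25.4% in endothelial cells, 13.0% and 15.1% in SGCs, 62.9% and 99.6% in myelinating and 19.8% and 30.6% in non-myelinating Schwann cells.

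**Figure D4:**
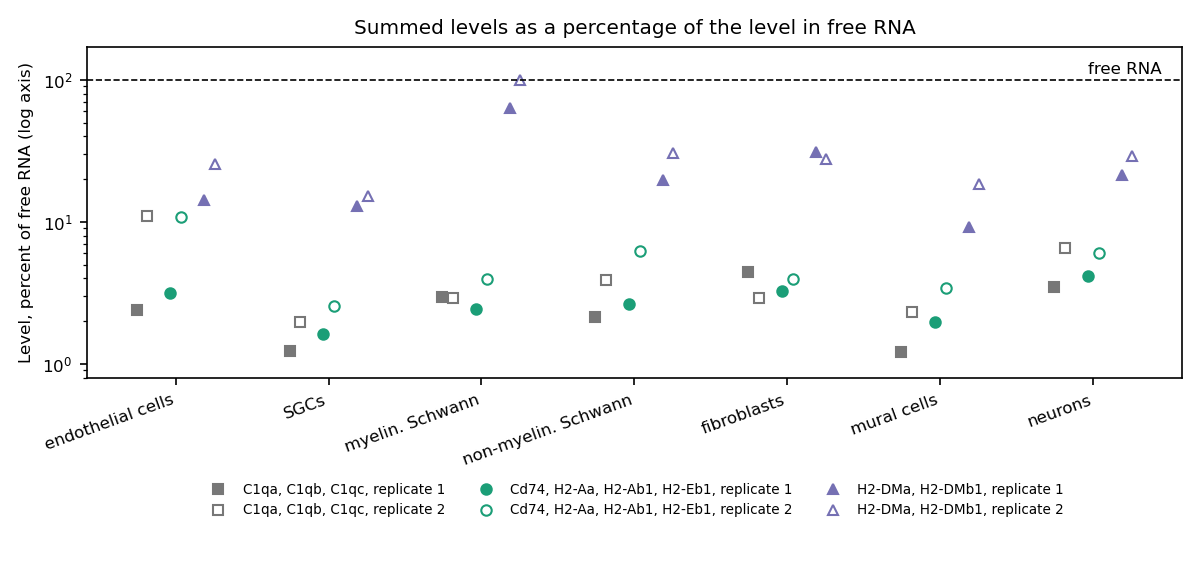
Summed level of the C1q genes (squares), of *Cd74* with the 3 chain genes (circles) and of the H2-M genes (triangles) as a percentage of the level in free RNA (log axis) in 7 classes, filled for replicate 1 and open for replicate 2. Squares and circles lie within 1.22% to 10.9% in all 7 classes, and triangles lie above both in each sample of every class, up to 99.6% in myelinating Schwann cells.

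Against free RNA scaled to the C1q percentage of each class and sample, a comparison added after seeing the data, *Cd74* differed by 0.34 ± 0.57 in endothelial cells, 0.30 ± 0.41 in SGCs, -0.05 ± 0.45 in myelinating and 0.25 ± 0.42 in non-myelinating Schwann cells (log2 ± SE). None of these differences passed the test (adjusted p 0.49 to 0.92), and their errors leave room for changes of that size in either direction. The SEs and p-values of this comparison take the C1q percentage as known and leave out its own error. It rested on 19 and 93 C1q UMIs in endothelial cells and 165 and 251 in SGCs. In myelinating Schwann cells it rested on 71 and 70, and in non-myelinating Schwann cells on 17 and 35. Of the chain genes only *H2-Ab1* in non-myelinating Schwann cells was called higher (1.15 ± 0.36, adjusted p 0.0028). *H2-DMa* was called higher in all 4 classes, by 1.64 ± 0.62 in endothelial cells, 3.62 ± 0.27 in SGCs, 4.75 ± 0.19 in myelinating and 3.65 ± 0.35 in non-myelinating Schwann cells. *H2-DMb1* was called higher by 1.59, 1.97, 4.83 and 1.46, and *Ciita* by 2.85 ± 0.78 in endothelial cells, 2.46 ± 0.41 in SGCs and 2.93 ± 0.79 in non-myelinating Schwann cells. Most genes rise in this comparison, since 77.1%, 91.6%, 86.1% and 84.1% of all genes were called higher, and the members called higher were 3, 3, 2 and 4 of 7. With the free RNA share taken from markers of other lineages, the count in non-myelinating Schwann cells was 2, and with free RNA from barcodes of 10 to 100 UMIs the count in SGCs was 6. By those markers the share was 8.38% and 10.7% in endothelial cells and 3.16% and 2.80% in SGCs. It was 6.41% and 5.64% in myelinating and 2.96% and 6.88% in non-myelinating Schwann cells. It exceeded the C1q percentage in every profile but endothelial cells of replicate 2. In the same profiles *Cd74* and the chain genes together lay under it. The H2-M genes lay above it in all.

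The marker lists of leukocytes differed in how they stood in these classes. The 8 general leukocyte markers summed to 285 and 236 CPM in free RNA, 9.02 and 19.7 CPM in endothelial cells, 4.44 and 5.20 CPM in SGCs, 8.91 and 8.46 CPM in myelinating and 9.91 and 9.43 CPM in non-myelinating Schwann cells. In endothelial cells *Rac2* was at 0 in both samples and in the 3 glial classes none of the 8 was. Among 11 macrophage markers *Fcgr1* was at 0 in both samples of endothelial and non-myelinating Schwann cells, and *Cd163* in myelinating Schwann cells. The 8 dendritic cell markers summed to 71.3 and 51.8 CPM in endothelial cells, with *Itgax*, *Xcr1* and *Ccr7* at 0 in both samples, and to between 5.21 and 24.5 CPM in the 3 glial classes, with *Ccr7* at 0 in each, against 25.0 and 32.0 CPM in free RNA and 1371 CPM in each sample of C1q-negative leukocytes. Most of the endothelial sum was *Zbtb46*, at 68.3 and 48.6 CPM, and the other 7 markers summed to 3.01 and 3.15 CPM. The 5 B cell markers summed to 1323 and 1438 CPM in endothelial cells, above the 151 and 167 CPM of free RNA, and *Ebf1*, which was also at 1834 and 1737 CPM in mural cells, made up all but 2.71 and 2.63 CPM of it. In the glial classes the B cell sums lay between 1.83 and 15.8 CPM. Of 7 T or NK cell markers 6 were at 0 in both samples of endothelial and myelinating Schwann cells, and their sums were at most 2.41 CPM in the 4 classes. The monocyte sums were at most 1.58 CPM, the mast cell sums at most 1.05 CPM and the neutrophil sums at most 4.80 CPM there. The part of leukocyte RNA in the members' levels was not tested beyond the comparisons given.

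In replicate 2, but not in replicate 1, a few endothelial cells carried most of the class II UMIs of their class. In replicate 1, 2 of 189 cells had 10 or more UMIs of *Cd74* and the chain genes, and they held 18.2% of the 132 such UMIs of the class. In replicate 2 there were 9 of 230 cells, with up to 102 UMIs in a cell, and they held 70.5% of 511. Without them the summed level was 32.8 and 42.3 CPM, against 39.7 and 134 CPM with them, so the samples then lay closer together. Of the 9 cells, 3 had a UMI of *C1qa*, *C1qb*, *C1qc*, *Ptprc*, *Tyrobp*, *Fcer1g* or *Coro1a*, and of the 2 cells 0, beside 16.0% and 15.8% of the other endothelial cells. *Ciita* was found in 1 and 3 of them and in 3 and 4 other endothelial cells. None had a high doublet score, and all had UMIs of both endothelial pair markers. The 9 cells of replicate 2 were deeper, with a median of 26686 UMIs against 14000 in the other endothelial cells, and deeper cells show more genes. In replicate 1 the medians were 14733.5 and 15531 UMIs.

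Of those cells 2 and 6 lay in the smaller endothelial cluster, which was led by *Ctla2a*, *Ccl21a*, *Emcn* and *Selp*. Its 26 and 22 cells had 75.2 and 402 CPM of *Cd74*, 66.8 and 72.2 CPM of *H2-Aa* and 16.7 and 17.3 CPM of *H2-DMb1*. The larger endothelial cluster had 6.07 and 43.4 CPM of *Cd74*, 4.05 and 10.99 CPM of *H2-Aa* and 2.36 and 2.31 CPM of *H2-DMb1*. *C1qa* was at 0 and 80.9 CPM in the smaller cluster and at 3.37 and 4.05 CPM in the larger one. *C1qc* was at 2.78 and 60.7 CPM in the smaller and at 0.675 and 1.45 CPM in the larger cluster. In both samples the *Cd74* of the smaller cluster stayed under the free RNA level, which was 541 CPM in replicate 1 and 529 CPM in replicate 2.

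Within myelinating Schwann cells the H2-M genes were concentrated in 1 of 2 clusters. Cluster 7 held 35.7 and 56.1 CPM of *H2-DMa* and 24.5 and 56.1 CPM of *H2-DMb1*, and cluster 0 held 10.5 and 13.8 CPM and 6.61 and 9.51 CPM. The clusters did not overlap in either gene, and cluster 7 was above free RNA in both genes and both samples. *Cd74* differed less, with 14.02 and 24.31 CPM in cluster 7 and 9.19 and 18.04 CPM in cluster 0. Cells of cluster 7 were shallower (median 4286 and 4246 UMIs, against 5771 and 6034) and had a median mitochondrial share of 10.8%, against 7.77%. The part of these differences in the H2-M levels was not tested.

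Most myelinating Schwann cells with an H2-M UMI had no UMI of *Cd74* or a chain gene. Per 100 UMIs of *Cd74* and the chain genes the whole class of myelinating Schwann cells held 99.4 and 89.3 UMIs of *H2-DMa* and *H2-DMb1*, against 2.41 and 2.33 in macrophages, 30.9 and 21.0 in SGCs and 17.4 and 8.41 in endothelial cells. At least 1 H2-M UMI was found in 12.6% and 14.4% of myelinating Schwann cells. A UMI of *Cd74* or a chain gene occurred in 18.2% and 34.2% of those cells and in 15.4% and 25.9% of the cells without H2-M, which had fewer UMIs (median 5031 and 5409, against 7142 and 7631).

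**Figure D5:**
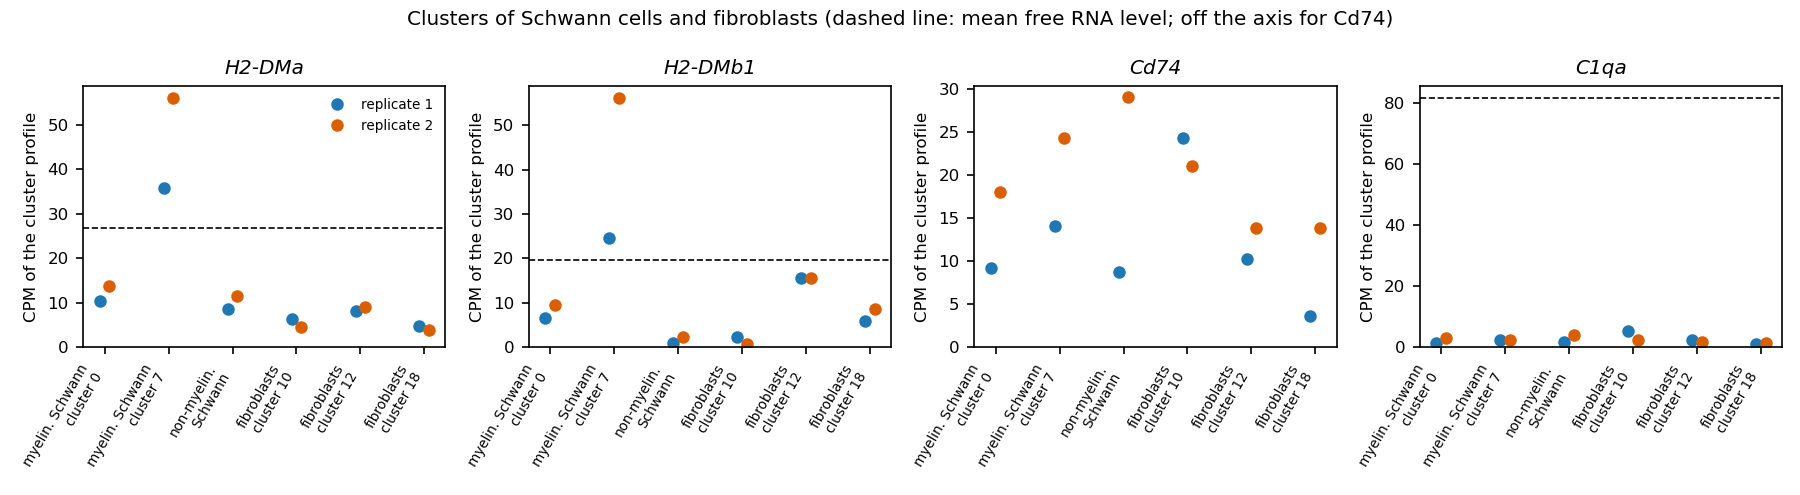
*H2-DMa*, *H2-DMb1*, *Cd74* and *C1qa* in CPM in clusters of Schwann cells and fibroblasts, 1 point per sample, with the mean free RNA level as a dashed line (off the axis for *Cd74*, at 535 CPM). Myelinating Schwann cluster 7 is above the line for both H2-M genes, and fibroblast cluster 12 has *H2-DMb1* at 15.6 and 15.7 CPM.

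Genes that overlap the members may bear on these counts. *H2-DMa* (Ensembl annotation of GRCm38, chr17:34119541-34139101, plus strand) overlaps the 5′ end of *Brd2*, a chromatin reader gene on the opposite strand that was at 96.6 and 88.5 CPM in myelinating Schwann cells, 64.6 and 63.2 CPM in SGCs and 128 and 137 CPM in endothelial cells. *Ciita* (chr16:10480059-10528418, plus strand) overlaps *Dexi* on the opposite strand, at 23.2 and 19.4 CPM in myelinating Schwann cells. Among the classes *Brd2* was highest in endothelial cells, where *H2-DMa* was at 3.01 and 7.62 CPM. Whether the authors' counting used strand is not given in the sources used here. Whether reads of 1 gene of a pair were counted for the other was not tested. *H2-DMb1* (chr17:34153072-34160230) overlapped no other gene, and its copy *H2-DMb2* had 1 and 0 UMIs in myelinating Schwann cells.

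Ordered by level, the classes other than leukocytes mostly did not differ from the next class in the order. Only such neighbours, which lie closest in level, were tested. Classes further apart in the order were not compared, such as myelinating Schwann cells and SGCs in *H2-DMb1* (mean 16.7 and 1.37 CPM, TMM scale). Each gene was tested between classes next to each other in its order, 56 pairs in all, and 9 passed (edgeR with TMM, adjusted p under 0.05). Over all genes, 42.3% of tests between the same class pairs passed. Those classes need not be neighbours in the order of another gene, so the 2 shares are not like measures. With the replicate block 13 of the 56 pairs passed, the added ones being the leukocyte classes in *H2-Aa* and *H2-Eb1*, endothelial cells above fibroblasts in *H2-Aa* (log2 0.72 ± 0.24, adjusted p 0.017) and fibroblasts above endothelial cells in *H2-DMb1* (0.96 ± 0.37, adjusted p 0.038). In 7 of the 9 pairs the lower leukocyte class stood above the next class. The other 2 placed myelinating Schwann cells next after leukocytes for the H2-M genes, above non-myelinating Schwann cells for *H2-DMa* (log2 1.198 ± 0.24, adjusted p 0.00057) and above fibroblasts for *H2-DMb1* (1.25 ± 0.24, adjusted p 0.00015). For *Cd74* the order after leukocytes was endothelial cells, neurons, non-myelinating Schwann cells, fibroblasts, myelinating Schwann cells, SGCs and mural cells, and no neighbours in it differed beyond their spread.

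Fibroblasts, mural cells and neurons completed the range. Fibroblasts had 16.3 and 17.7 CPM of *Cd74*, 6.93 and 5.84 CPM of *H2-DMa* and 8.06 and 6.54 CPM of *H2-DMb1*. Their cluster 12, led by *Mgp*, *Ecrg4* and *Igfbp6*, had 15.6 and 15.7 CPM of *H2-DMb1*, and cluster 10, led by *Apod* and *Dcn*, had 2.34 and 0.732 CPM. Mural cells, the contractile cells around vessels, had 6.03 and 13.9 CPM of *Cd74* and 0 and 2 UMIs of *Ciita*. Neurons had 9 and 18 UMIs of *Cd74* and 0 of *Ciita* in profiles of 481118 and 543690 UMIs. *Cd74* was at 23.8 and 68.8 CPM in their shallow cluster. In the few kept cells of their deep cluster it was at 6.91 and 9.21 CPM, from 1 and 3 UMIs.

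The share of cells with a UMI was compared after thinning each cell to 1000 UMIs. In macrophages of replicate 1 *Cd74* was found in 86.6% (155 of 179 cells, exact 95% binomial interval 80.7% to 91.2%, 4 cells too shallow). In those of replicate 2 it was found in 96.4% (135 of 140, 91.9% to 98.8%, 8 too shallow). In C1q-negative leukocytes it was found in 59.5% (25 of 42, 43.3% to 74.4%) and 77.1% (37 of 48, 62.7% to 88.0%). In endothelial cells it was found in 0 of 187 cells of replicate 1 and in 3.302% of 212 cells of replicate 2 (exact interval 1.34% to 6.68%). The shares in replicates 1 and 2 were 0.686% and 1.43% in SGCs, 1.49% and 2.01% in myelinating and 0.742% and 3.59% in non-myelinating Schwann cells. In cells not known for class II they were 0.254% and 1.55% (mural cells) and 1.12% and 4.17% (neurons, 1 of 89 and 2 of 48 cells deep enough). Replicate 2 was the higher in every one of these classes, and outside the leukocytes the samples differed by more than 1.5 times in all but myelinating Schwann cells. Median depths before thinning ran from 1366 UMIs in those neurons to 19003 in C1q-negative leukocytes, and without thinning *Cd74* was found in 19.3% of endothelial cells and 12.7% of SGCs. After thinning, *H2-DMb1* was found in 0 of 399 endothelial cells, which allows a share of cells with a UMI at that depth of up to 0.752% (3 cells), against 18 of 419 cells (4.30%) without thinning. It was found in 0.0981% of SGCs and in 1.45% of myelinating Schwann cells. These intervals and limits cover counting error only.

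Other genes of antigen presentation moved in both directions in endothelial cells. Of 40 measured list genes, 19 were higher and 11 lower than in free RNA there, beside 24.3% and 37.1% of all genes. All 10 MHC class I genes were higher, with a median log2 change of 1.23, as were 5 of 7 genes of the interferon gamma list. Among these were *Jak1* (341 and 333 CPM against 97.5 and 116 CPM in free RNA, log2 1.65 ± 0.16), *Irf1* (1.480), *Jak2* (1.35) and *Socs1* (1.17). Of 7 lysosomal genes 6 were lower, among them *Ctss*, the protease that trims invariant chain, at 0.602 and 1.31 CPM (log2 -5.88 ± 0.33). Of the class II transcription list, *Creb1* (0.88) and *Nfyc* (0.83) were higher and *Rfxank* (-0.86) lower.

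In myelinating Schwann cells 6 of the 40 list genes were higher and 31 lower, beside 18.9% and 41.8% of all genes. *Nlrc5*, the transactivator of class I genes, was higher (30.1 and 26.4 CPM against 8.024 and 8.005 CPM, log2 1.82 ± 0.24), while the other 9 class I genes were lower, with *H2-K1* at 65.8 and 109 CPM (-2.55). *Irf1* (0.94), *Jak2* (0.52), *Nfyc* (0.51) and *Creb1* (0.31) were also among the genes that were higher, and all 7 lysosomal genes were lower. With TMM scaling 8 genes were higher and 24 lower.

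Non-myelinating Schwann cells had 8 of the 40 list genes higher and 14 lower, shares near the 17.7% and 30.1% of all genes. Of the 8, 4 were class I genes, *Nlrc5* (1.70), *Psmb8* (1.02), *H2-T23* (0.94) and *H2-D1* (0.65). *Jak2* (0.65) and *Jak1* (0.61) of the interferon gamma list were higher, and with TMM 10 list genes were higher and 10 lower. In SGCs none of the 40 was called higher by edgeR (1 at an unadjusted p under 0.05) and 24 were lower, beside 11.0% and 38.6% of all genes, but the split moved to 9 higher and 13 lower with TMM and to 4 and 15 with DESeq2. TMM raised log2 changes by 0.48 in SGCs, 0.37 in myelinating Schwann cells, 0.27 in endothelial cells and 0.22 in non-myelinating Schwann cells.

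By correlation of log2(CPM + 1) over 18 profiles of 9 classes, the 5 genes most like the mean of the members were *Laptm5* (Pearson r 0.997), *Mir142hg* (0.996), *Nckap1l* (0.995), *Mgl2* (0.995) and *Itgam* (0.995). The profiles of 1 class share cell type and those of 1 sample share a library, so these values describe the pattern only. *Laptm5*, for example, had 863 CPM in macrophages, 628 CPM in C1q-negative leukocytes and at most 1.57 CPM in any other class.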

How the data were processed

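Per the labels and the study's methods, the authors aligned 10x Genomics libraries to mm10 with Cell Ranger (version 7.1.0 in the file header) and deposited raw UMI counts per gene and barcode, unfiltered. The annotation release and the use of strand are not given in the sources used here. From these counts cells were called by UMI total and then by difference from free RNA (false discovery rate 0.01), cells with over 300 genes were kept, and cells over the median plus 5 median absolute deviations and 280 cells in a mitochondrial cluster were removed, which left a mean of 11945 UMIs per cell. Mixed clusters, which may hold doublets, were left out of every named class but stayed among the kept cells. A doublet score marked 2.42% and 2.99% of called cells, which were left out in 1 alternative only. Cells were clustered with Seurat 5.3.0 and sctransform 0.4.2 (3000 variable genes, 30 components, resolution 0.8) and leukocytes subclustered with scanpy 1.11.5. The leukocyte subclustering, and the rule that a cluster with another lineage's marker pair at 40% or more of its level is mixed, were chosen after seeing the data.

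UMIs were summed per sample and class and tested with edgeR 4.0.16 (glmQLFit, glmQLFTest, Benjamini-Hochberg over all genes with 10 or more UMIs in 2 or more profiles): classes with TMM (17595 genes), and classes with free RNA on UMI totals (17726 genes), in 1 fit each. DESeq2 1.42.0 was an alternative. P-values measure the spread between 2 samples, which may be technical. Profiles with the same number come from the same sample, and their deviations from class means correlated weakly (median 0.0379 over 36 pairs of classes, 4 over 0.1). On simulated counts for endothelial cells against free RNA (17725 genes) 61% of 2-fold and 98% of 4-fold changes were recovered, with 3.05% false calls. The members and lists were chosen with earlier results of these data known. The 7 members were named in every class, and of each list at most 4 genes with the largest change past the threshold, plus the rest where a count of 6 or fewer was named in full, except that values of 1 item are not reported here. Of 43 list genes 40 were tested, and *H2-Ea* was not analysed here. Promoters of *Cd74*, *H2-Ab1* and *Ciita* were not analysed here.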

Additional observations from a re-analysis of the deposited data

How the results depend on the processing

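No member was called higher than full free RNA in any of the 4 classes under any alternative. Of 532 values of single members under alternatives other than leaving out a whole sample, 509 kept direction and side of the threshold, 3 lost their call (*Ciita* in non-myelinating Schwann cells, at resolution 1.2, with free RNA of 10 to 100 UMIs and without that class's profile of replicate 2), 9 gained one and 11 changed sign. Those that changed sign were near 0 and not called. They were *H2-DMa* in myelinating Schwann cells with TMM (0.034), *H2-DMb1* there with TMM (0.12) and without the cells of replicate 1 (0.07), and, between macrophages and C1q-negative leukocytes, *H2-DMa* with the replicate block (0.0037), at resolution 1.2 (0.0105), with members among the variable genes (0.0445), with cells by UMI total alone (0.0218), with cells over the cutoffs kept (0.00101), without macrophages of replicate 1 (0.07) and without C1q-negative leukocytes of replicate 2 (0.19), and *Ciita* without macrophages of replicate 1 (0.15). The cause was not tested. Members called between the leukocyte classes were 4 without the filter on low counts and 2 with the replicate block, and pairs of neighbouring classes 18 without the filter. List genes higher in SGCs than in free RNA were 9 with TMM, 4 with DESeq2, and 1 with the replicate block, at resolution 1.2, with members among the variable genes, with cells by UMI total alone, with cells over the cutoffs kept and without cells of high doublet score. List genes higher in non-myelinating Schwann cells were 5 to 7 with 1 of that class's profiles left out. At the C1q share, the count was 6 in SGCs with free RNA of 10 to 100 UMIs and 2 in non-myelinating Schwann cells with markers of other lineages. Beside the pairs named with the class order, the replicate block moved no other count of calls by over 1.5 times. Leaving out a whole sample leaves 1 profile per class, which gives values with no test, and 3 of 70 had the other sign (*H2-DMb1* in myelinating Schwann cells, *H2-DMa* and *Ciita* between the leukocyte classes). Together with single profiles left out the range was -0.76 to 0.13 for *H2-DMb1* in myelinating Schwann cells against free RNA and, between the leukocyte classes, on the TMM scale, -0.18 to 0.19 for *H2-DMa*, 0.10 to 0.35 for *H2-DMb1* and -0.55 to 0.15 for *Ciita*. Depth limited *Ciita* most, with 1 to 8 UMIs per profile in endothelial and Schwann cells. Of 126 shares of cells under other thinning, 89 moved by more than the SD between samples.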
